A study of Mus musculus with 3 samples.

Results

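The myosin light chains and the kinases that act on them were followed as 10 genes (Myl1, Myl2, Myl3, Myl4, Myl6, Myl6b, Myl9, Mylpf, Mylk and Mylk4) of the 35562 genes listed in bulk RNA-seq of cultured mouse myoblasts. They were chosen by name as a family, and the TPM values and estimated counts of all transcripts of a gene were summed, with the transcripts of Myl1 also kept apart by their start. TPM is the read count of a transcript divided by its length and scaled to 1000000 over the library, so that the levels of different genes can be set beside each other. The 10 genes together held 2698, 2916 and 3166 TPM in lines 66, 67 and 72, which is 0.270%, 0.292% and 0.317% of all TPM.

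The study asked whether edited pluripotent cells can form muscle stem cells within a host animal. The 3 libraries came from myoblast lines of genotype Dmdmdx; Pax7-nGFP in which CRISPR/Cas9 had been used to restore the reading frame of the mdx allele, the dystrophin mutation of a mouse model of Duchenne muscular dystrophy. The edit was made in induced pluripotent stem cells, and these were injected into mouse blastocysts, so that the myoblasts came from mouse-mouse chimeras and carried a green nuclear reporter of Pax7, the gene that marks satellite cells. The hosts carried Pax7CreERT2 and a Cre-dependent diphtheria toxin A allele, which removes host satellite cells after tamoxifen. The labels do not say which lines came from tamoxifen-injected chimeras, nor whether the lines derive from 1 edited clone, and the age of the chimeras is not given there. All 3 lines therefore formed 1 condition (n = 3 lines), without an unedited or differentiated group to compare, and their spread is that between these lines.

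Myosin is a motor made of a pair of heavy chains, and the neck of each heavy chain is wrapped by an essential and a regulatory light chain. Essential chains stiffen the lever arm, whereas regulatory chains can be phosphorylated by a calmodulin-dependent kinase, which switches nonmuscle and smooth muscle myosin on and tunes the force of sarcomeric myosin. Skeletal muscle draws on its own light chain genes, which come on as myoblasts leave the cell cycle and fuse, while proliferating cells rely on the nonmuscle chains.

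The libraries held between 66972426 and 73274315 estimated counts. The 6 myoblast markers (Pax7, Myf5, Myod1, Des, Itga7 and Cdh15) each had a mean above 10 TPM and summed to 1977, 1902 and 1809 TPM in lines 66, 67 and 72. Fibroblast, endothelial and immune lists summed to at most 6.29 TPM in any line. Among the cardiac markers Myl7, Nppa and Nkx2-5 were listed at 0 in every line, whereas Gata4 held 22.1, 14.7 and 8.44 TPM. Of the 7 smooth muscle markers, Myh11 (10, 7 and 13 counts) and Cnn1 were near 0 and Acta2 reached 209, 292 and 581 TPM, with a list sum of 315, 381 and 736 TPM. In bulk RNA, a change in the number of cells of a type and a change in the RNA of each cell cannot be told apart.

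Myl1, at chr1:66924295-66945404 on the minus strand (GRCm38, here and for all coordinates), is the essential light chain gene of fast skeletal muscle and makes 2 proteins from 2 promoters. The longer protein, MLC1f, has an extended tail at its start that can touch actin, and the shorter MLC3f lacks it. Their coding starts are shown because the split between them is read from these bases. Capitals mark the coding bases found in 1 form only, and lower case marks the first 30 bases of the part that both share.
MLC1f: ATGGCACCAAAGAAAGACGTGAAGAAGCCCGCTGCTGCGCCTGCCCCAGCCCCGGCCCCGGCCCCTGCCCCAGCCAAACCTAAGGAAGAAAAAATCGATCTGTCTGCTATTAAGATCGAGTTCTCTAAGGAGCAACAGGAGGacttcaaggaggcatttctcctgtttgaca
MLC3f: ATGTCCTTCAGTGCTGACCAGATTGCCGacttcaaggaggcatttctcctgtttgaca
MLC1f starts its coding at chr1 position 66944905 and has 142 coding bases of its own, and MLC3f starts at position 66935278 with 28. Both then run through the same 422 coding bases.

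Transcripts with the MLC3f start led in every line. They held 138, 235 and 265 TPM in lines 66, 67 and 72, against 28.1, 46.7 and 68.7 TPM for transcripts with the MLC1f start. MLC3f starts thus made up 81.5%, 81.8% and 77.9% of Myl1 TPM (80.4% ± 2.21, SD, n = 3), and MLC1f starts 17.7% ± 2.17. Line 72 had the largest share of MLC1f starts, with 20.2%, and the lowest ratio of MLC3f to MLC1f starts, 3.85 against 4.90 in line 66 and 5.02 in line 67. Both forms were lowest in line 66 and highest in line 72, with 1.92 times the TPM in line 72 for MLC3f and 2.44 times for MLC1f. The remaining 1.89% ± 0.04 of Myl1 TPM came from transcripts with neither coding start. Shares taken from estimated counts in place of TPM were close, at 82.1% ± 1.83 for MLC3f starts. MLC1f starts were spread over a transcript with the full coding sequence (11.2, 18.0 and 24.3 TPM) and a shorter one that lacks the end of it (16.9, 28.8 and 44.4 TPM). From estimated counts the order was the opposite, with 476, 692 and 969 for the full transcript and 306, 477 and 763 for the shorter one.

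Myl6 was the highest of the 10 genes. It is the essential chain of nonmuscle and smooth muscle myosin and lies at chr10:128490860-128494145 on the minus strand. It held 1388, 1300.2 and 1265 TPM in lines 66, 67 and 72 (1318 ± 63.2, SD), above 99.5% of the 25510 genes detected in any line. The lines were close to each other, with a coefficient of variation of 4.80% against a median of 8.74% over the 8428 genes averaging 10 TPM or more.

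The 3 lines differed in the share of Myl6 assigned to each end of the coding sequence. An alternative exon of 45 bases at chr10:128491720-128491764, known from the nonmuscle form of the protein, carries its own stop codon, and transcripts that skip it end in the next exon, as in the smooth muscle form. The last coding bases of both forms are shown, with the exon that differs in capitals.
Myl6 with the exon: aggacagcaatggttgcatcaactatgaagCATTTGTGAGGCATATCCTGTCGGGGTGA
Myl6 without the exon: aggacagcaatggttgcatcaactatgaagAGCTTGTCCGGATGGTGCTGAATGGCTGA
The transcript with the exon held 670.0, 453 and 351 TPM in lines 66, 67 and 72, and transcripts without it held 505, 619 and 737 TPM. The form with the exon was thus the larger in line 66, at 48.3% of Myl6 TPM, and the smaller in line 72, at 27.7%, while the gene total hardly differed. The ratio of the form without the exon to the form with it was 0.753, 1.37 and 2.10 in lines 66, 67 and 72, and from estimated counts 0.687, 1.24 and 1.82. The rise of the form without the exon from line 66 to line 72 fell on a transcript with a shorter coding sequence. This transcript was given 0, 19.9 and 271 TPM in lines 66, 67 and 72 (0, 388 and 5317 counts). The full transcript without the exon held 505, 599 and 466 TPM, so that it alone did not follow this order. These shares rest on how reads were divided between transcripts of the gene.

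Myl4, at chr11:104550663-104595753 on the plus strand, is the essential chain of atrial and embryonic muscle. It held 167, 226 and 313 TPM in lines 66, 67 and 72 (6424, 7969 and 10828 estimated counts). It was again lowest in line 66 and highest in line 72, by 1.87 times, and stayed close to Myl1, which held 169, 287 and 339.8 TPM (4804, 7377 and 8939 estimated counts). The ratio of Myl1 to Myl4 was 1.01, 1.27 and 1.09, so that both genes were at near equal levels in TPM. In estimated counts Myl4 was above Myl1 in every line. Most Myl4 came from 1 transcript, with 150.1, 203 and 249 TPM. Its start, at chr11 position 104577281, lies inside the gene, away from the most upstream start.

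Myl6b, at chr10:128494157-128498685 on the minus strand beside Myl6, is an essential chain known from slow muscle and nonmuscle tissue. It held 78.4, 140.2 and 91.8 TPM in lines 66, 67 and 72, and among the 7 genes averaging 10 TPM or more it alone was highest in line 67. Myl6b and Myl6 share 22 words of 31 bases and 98.8% of the words of Myl6b are found in no other gene. Myl3, the essential chain of slow and ventricular muscle at chr9:110741861-110769798, had 1, 2 and 0 estimated counts, all at or below the 3 counts that a count of 0 allows. The coding sequences of the 5 essential chains were 69.7% to 78.5% identical over their aligned bases, with Myl6 and Myl6b the closest pair.

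**Figure D1:**
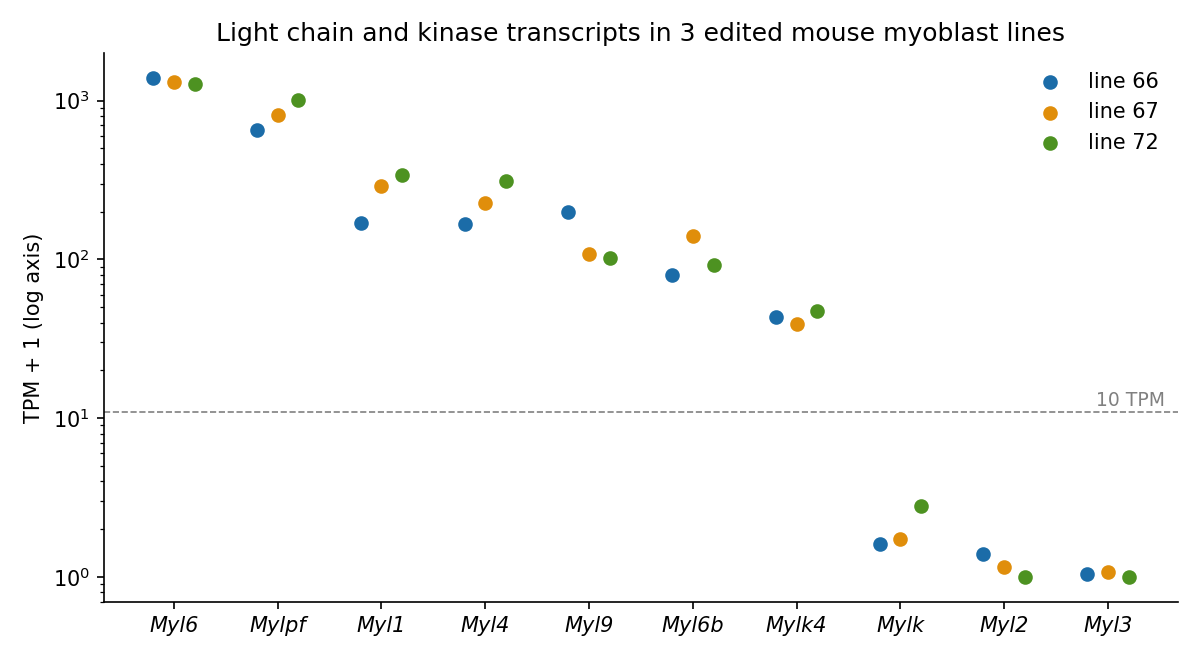
Each point is the level of 1 gene in 1 line, as TPM + 1 on a log axis, with the genes ordered by their mean and the dashed line at a mean of 10 TPM. The 7 genes from Myl6 to Mylk4 lie above the dashed line in every line, and Mylk, Myl2 and Myl3 lie below it.

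Mylpf was the second highest of the 10 genes. It is the regulatory light chain of fast skeletal muscle, lies at chr7:127208890-127214298 on the plus strand and is needed for skeletal muscle to form. It held 653, 816 and 1008 TPM in lines 66, 67 and 72 (16543, 19257 and 25512 estimated counts), with no overlap with Myl6 above it or Myl1 below it. Line 72 was 1.54 times line 66. No word of 31 bases of Mylpf or of Myl1 was found in another gene.

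Most Mylpf transcripts began their coding in the upstream exon. The start of the longer coding sequence is shown, with the 60 bases absent from the shorter one in capitals.
Mylpf: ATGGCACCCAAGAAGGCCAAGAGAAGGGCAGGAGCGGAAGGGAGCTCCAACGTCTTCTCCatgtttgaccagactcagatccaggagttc
Transcripts with this start, at chr7 position 127211761, made up 60.8%, 65.6% and 63.1% of Mylpf TPM in lines 66, 67 and 72. The others were given the downstream start at position 127212918, which skips these bases. Their share was 36.8% ± 2.43 from TPM and 29.6% ± 3.0 from estimated counts, and it rests on how reads were divided between transcripts that share most of their exons. The capital bases end just before an ATG, and whether the downstream start is translated was not measured.

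Myl9, at chr2:156775420-156781658 on the plus strand, is the regulatory chain of smooth muscle and nonmuscle myosin. It held 199, 107 and 101 TPM in lines 66, 67 and 72 (5935, 2751 and 2610 estimated counts). It was thus highest in line 66, by 1.98 times over line 72, while lines 67 and 72 were near each other. The protein coding transcript followed, with 92.5, 44.5 and 40.2 TPM. It took only 42.7% ± 3.37 of Myl9 TPM but 78.6% ± 2.31 of its estimated counts, because a noncoding transcript of 345 bases gains weight when counts are divided by length. The bases just before the start of the protein coding transcript are shown (chr2:156775214-156775419, plus strand, RefSeq promoter window of GRCm38.p6). The capitals mark a CArG box, the motif of serum response factor. Whether this box bears on the level of Myl9 was not tested.
Myl9 promoter: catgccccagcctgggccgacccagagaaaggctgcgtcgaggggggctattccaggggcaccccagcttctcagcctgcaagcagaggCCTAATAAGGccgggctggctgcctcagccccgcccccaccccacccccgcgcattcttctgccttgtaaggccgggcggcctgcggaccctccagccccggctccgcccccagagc
CArG boxes were found in 1.63% of 32851 promoter windows of 300 bases, on either strand, and in windows of 3 of the 10 genes (Myl9, Myl3 and Myl6). For Myl6 the match lies in a second window inside the gene, and the window at its main start has none. The E-box CANNTG, the motif of MyoD and myogenin, was found for 8 of the 10 genes and in 72.3% of all windows. A MEF2 site was found for none of the 10 and in 0.557% of all windows. The 10 genes had 12 windows, so that counts of genes and shares of windows are not in the same unit. The windows of Myl4, Myl1 and Mylk4 lie at their upstream starts and do not cover the starts of the leading Myl4 transcript, of MLC3f and of the Mylk4 transcripts with reads. Mylk4 and Myl2 are among the 8 genes with an E-box, and both windows of Myl2 lie outside the gene as annotated here.

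Myl2, the regulatory chain of slow and ventricular muscle at chr5:122100951-122113472, had 4, 3 and 0 estimated counts in lines 66, 67 and 72. The light chains of slow and ventricular muscle, Myl2 and Myl3, were therefore at or near the limit of detection. Outside the 10 genes, the atrial chain Myl7 was listed at 0 in every line and Myl10 had 2, 6 and 2 counts. The nonmuscle regulatory chains Myl12a and Myl12b, summed here because the division of reads between them is uncertain, held 1932, 1932 and 1790 TPM together. Myl9 shares only 5 words of 31 bases with them and its coding sequence is 85.7% identical to that of Myl12a.

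Regulatory chains outweighed essential chains when all 12 light chain genes were summed. The sums were 1802, 1953 and 2009 TPM for the essential and 2785, 2855 and 2898 TPM for the regulatory chains in lines 66, 67 and 72. The difference of essential minus regulatory was -0.57 ± 0.05 (log2, SD, n = 3) and had this sign in 3 of 3 lines (two-sided exact sign-flip test, p = 0.25, the lowest possible with 3 lines). Its direction hangs on Myl12a and Myl12b, since with only Myl2, Mylpf and Myl9 as regulatory chains it was 1.01 ± 0.13. Myl6 made up 77.0%, 66.6% and 63.0% of the essential sum, Myl1 9.37%, 14.7% and 16.9%, and Myl4 9.28%, 11.6% and 15.6%. Mylpf made up 23.5%, 28.6% and 34.8% of the regulatory sum, and Myl9 7.15%, 3.74% and 3.47%.

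Nonmuscle light chains exceeded the sarcomeric ones in every line, and least so in line 72. The sarcomeric chains (Myl1, Myl2, Myl3, Myl4, Mylpf and Myl6b) summed to 1068, 1469 and 1752 TPM in lines 66, 67 and 72. Myl6, Myl9, Myl12a and Myl12b summed to 3519, 3339 and 3156 TPM. The log2 difference of sarcomeric minus nonmuscle came to -1.72, -1.18 and -0.85 in lines 66, 67 and 72 (mean -1.25 ± 0.44, SD, two-sided exact sign-flip test, p = 0.25). Sarcomeric chains thus had 0.304 of the TPM of nonmuscle chains in line 66 and 0.555 in line 72.

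**Figure D2:**
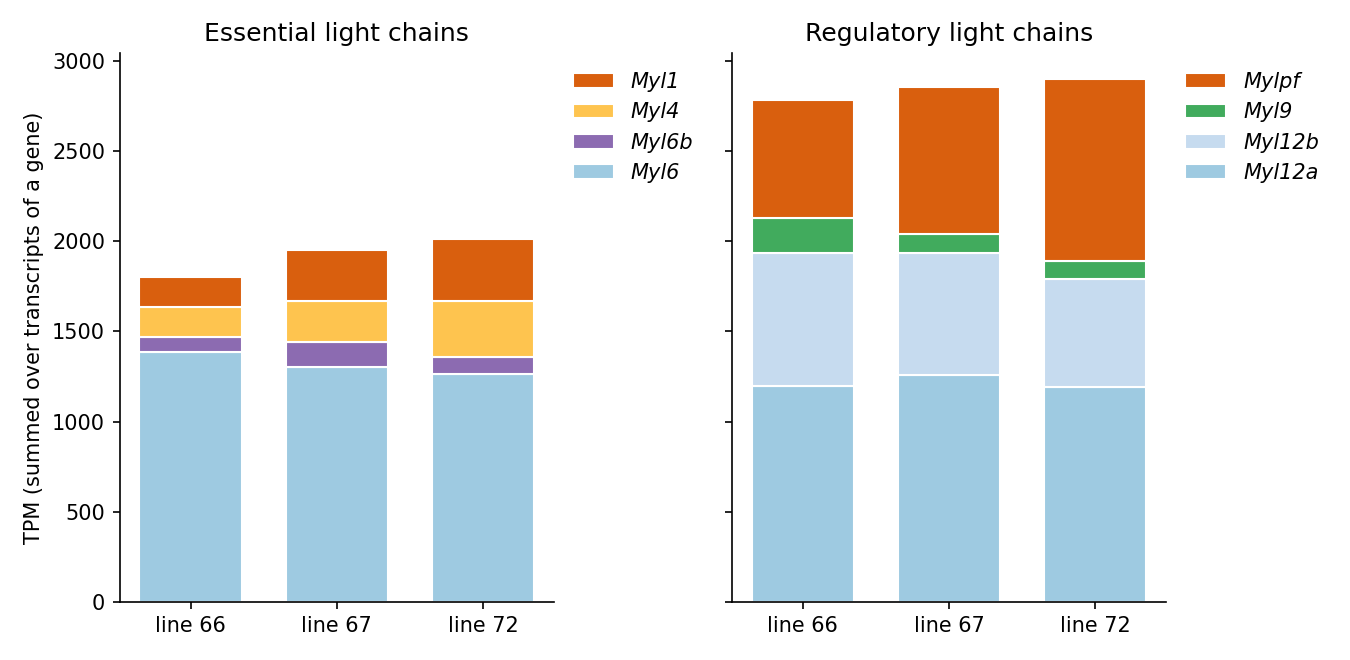
Stacked bars give the TPM of each essential (left) and regulatory (right) light chain gene in lines 66, 67 and 72. Myl6, Myl12a and Myl12b make up most of each bar, and the blocks of Myl1, Myl4 and Mylpf are smallest in line 66 and largest in line 72. Genes below 1 TPM are not drawn.

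Of the kinases, Mylk4, at chr13:32700834-32783954 on the minus strand, was far above the best known one, Mylk. Mylk4 held 42.3, 38.2 and 46.3 TPM in lines 66, 67 and 72 (coefficient of variation 9.53%). Its reads were divided between a transcript of 1541 bases, with 58.3% ± 4.28 of the TPM, and a longer one, with 34.9% ± 3.67. From estimated counts the order was the opposite, with 22.9% ± 2.88 and 74.5% ± 2.80, so that its leading transcript depends on the unit. The longer one is listed with 5641 bases, against 5571 in the annotation used here. Mylk, the smooth muscle and nonmuscle kinase at chr16:34745210-35002420, held 0.617, 0.731 and 1.80 TPM (between 174 and 426 estimated counts). It was highest in line 72, the line in which Acta2 was highest and Myl9 lowest. Mylk4 was 68.5, 52.3 and 25.7 times Mylk. Of the kinases outside the 10 genes, the skeletal muscle kinase Mylk2 held 5.88, 9.17 and 4.97 TPM and the cardiac kinase Mylk3 had 6, 8 and 14 counts. Mylip, a ubiquitin ligase that binds the regulatory chain, held 3.55, 2.54 and 3.05 TPM.

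The regulators of light chain phosphorylation were present throughout. Of 10 genes for the myosin phosphatase and for its and the kinase's activators, 9 averaged 10 TPM or more. Ppp1r12a, the targeting subunit of the phosphatase, held 70.6, 68.7 and 64.6 TPM, and its catalytic subunit Ppp1cb 205, 256 and 268 TPM. Rhoa and Rock2, which restrain the phosphatase, held 564 ± 46.0 and 125 ± 8.01 TPM. Calm2 and Calm3, which encode calmodulin, the activator of the kinases, held 533 ± 32.1 and 306 ± 12.0 TPM. None of the 9 was over 2-fold apart between lines 66 and 72, as was the case for most genes (0.593% were past it higher in line 72 and 0.712% higher in line 66).

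By mean level the 10 genes ran in the order Myl6, Mylpf, Myl1, Myl4, Myl9, Myl6b, Mylk4, Mylk, Myl2 and Myl3. With protein coding transcripts only, Myl9 stood below Myl6b (mean log2(TPM + 1) of 5.81 against 6.63, from 7.02 against 6.66), and its share of the regulatory sum was 2.17% in place of 4.79%. Of the 9 pairs of neighbours, 6 had the same order in all 3 lines. Myl1 and Myl4 were ordered the same way in 3 of 3 lines, but by only 0.16 ± 0.17 (log2), and their ranges over lines overlapped. The order was not fixed for Myl4 and Myl9 (difference 0.82 ± 0.96, 2 of 3 lines) or for Myl9 and Myl6b (0.36 ± 0.88, 2 of 3 lines), nor for Myl2 and Myl3, both near 0. Myl9 was above Myl4 in line 66, and Myl6b was above Myl9 in line 67. The ranges of the other 5 pairs did not overlap, and with 3 lines the exact sign-flip test cannot go below p = 0.25.

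Most of the light chain genes varied more between lines than a gene of these libraries usually did. The SD over lines was 0.54 for Myl9, 0.52 for Myl1, 0.45 for Myl4, 0.43 for Myl6b and 0.31 for Mylpf on the log2 scale, against a median of 0.12 over the 8428 genes. It was 0.07 for Myl6 and 0.13 for Mylk4. Of the 7 genes averaging 10 TPM or more, 5 were over 1.5-fold apart (of TPM + 1) in some pair of lines (Myl1, Myl4, Mylpf, Myl9 and Myl6b), against 9.03% of the 8428 genes. Higher in line 72 than in line 66 by this measure were Myl1, Myl4 and Mylpf (background 3.13%). Higher in line 67 than in line 66 were Myl1 and Myl6b (background 2.72%), and Myl6b was also higher in line 67 than in line 72 (1.59%). Myl9 was higher in line 66 than in line 67 (2.44%) and than in line 72 (2.05%), and none was higher in line 72 than in line 67 (1.73%). With 1 library per line, these differences have no test.

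Past 2-fold the count was 1 of 7, Myl1, which was 2.01-fold higher in line 72 than in line 66 (background 0.593% in this direction and 2.17% for any pair of lines). None was past 2-fold higher in line 66 than in line 67 (background 0.759%) or line 72 (0.712%), in line 67 than in line 66 (0.427%) or line 72 (0.392%), or in line 72 than in line 67 (0.475%). Myl9 stood just outside, 1.97-fold higher in line 66 than in line 72. CPM, which is not divided by length, exchanged these calls when used in place of TPM, so that Myl9 was past 2-fold and Myl1 was not (189 of the 8428 genes past it in some pair of lines with CPM, 183 with TPM).

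Myl1, Myl4 and Mylpf were lowest in line 66, intermediate in line 67 and highest in line 72, an order held by 29.4% of the 8428 genes. Myl6 and Myl9 had the opposite order (11.7% of genes), Myl6b was highest in line 67 and lowest in line 66 (18.4%), and Mylk4 was highest in line 72 and lowest in line 67 (16.3%). None of the 7 was highest in line 66 and lowest in line 67 (16.4%), or highest in line 67 and lowest in line 72 (7.82%). The chromosomes of these genes did not all have the same level. In line 66 the 427 genes of chromosome 10 had a median 0.28 (log2) above the other lines and the 699 genes of chromosome 11 a median 0.32 above them, relative to all genes. Myl4, on chromosome 11, and Myl6b, on chromosome 10, were nonetheless lowest in line 66, and Myl6, also on chromosome 10, was highest there. The medians of the chromosomes of Myl1, Myl9, Mylpf and Mylk4 lay between -0.08 and 0.07 in all 3 lines, and the part of chromosome level in the values of the others was not tested.

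Heavy chains of the sarcomere had the same order over the lines as Myl1, Myl4 and Mylpf. Of 9 sarcomeric heavy chain genes, 4 averaged 10 TPM or more, and all 4 were lowest in line 66 and highest in line 72 (29.4% of the 8428 genes). Embryonic Myh3 led with 204, 262 and 339 TPM, followed by Myh1 with 31.8, 57.0 and 57.6, perinatal Myh8 with 8.34, 18.8 and 27.2 and slow Myh7 with 7.06, 15.5 and 19.9. Myh7 and Myh8 were over 2-fold higher in line 72 than in line 66 (0.593% of genes), and the median log2 difference of the 4 was 1.10, against 0.08 for all genes tested. Nonmuscle Myh9 held 481, 425 and 472 TPM, without this order. Mylpf was 2.57, 2.27 and 2.25 times the summed sarcomeric heavy chains, and Myl1 and Myl4 together 1.32, 1.43 and 1.46 times. Myl6 was 2.54, 2.73 and 2.36 times the nonmuscle and smooth muscle heavy chains.

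Genes of thick filament assembly and of differentiation had the same order in most cases. Of 7 assembly genes, 4 passed 10 TPM, all 4 with this order (29.4% of genes) and 2 over 2-fold higher in line 72 than in line 66 (0.593%), among them Smyd1, a methyltransferase that aids myosin folding (38.3, 72.2 and 96.1 TPM). Of 6 differentiation genes, 5 passed 10 TPM and 4 had this order, again beside 29.4% of genes. Myog, the factor that starts terminal differentiation, held 168, 222 and 310.4 TPM, skeletal actin Acta1 350.4, 486 and 588, the fusion protein Mymk 67.6, 106 and 119, and Mef2c 19.9, 39.9 and 48.8. Myod1, the determination factor, ran the other way with 791, 702 and 579 TPM. The 4 proliferation genes were lowest in line 66, as were many genes (29.4% with line 72 highest and 18.4% with line 67 highest), and 1 of them, Cdk1, was highest in line 72 (148, 171 and 172 TPM). The smooth muscle actin Acta2 was highest in line 72, where Myl9 was lowest.

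**Figure D3:**
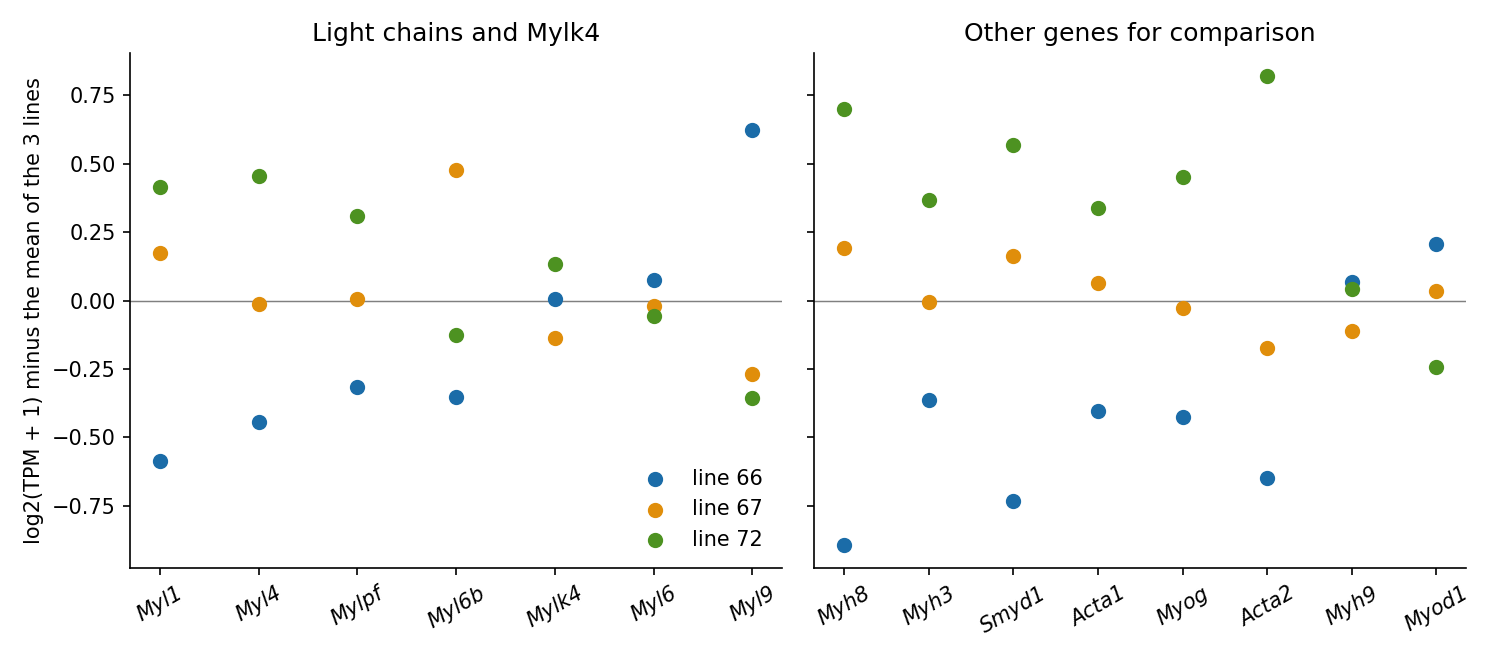
Points give log2(TPM + 1) of each gene in each line minus the mean of the 3 lines, for the 7 light chain and kinase genes averaging 10 TPM or more (left) and 8 genes for comparison (right). Line 72 is at the top and line 66 at the bottom for Myl1, Myl4 and Mylpf and for Myh8, Myh3, Smyd1, Acta1, Myog and Acta2, while Myl9 and Myod1 are highest in line 66.

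The genes nearest to each skeletal light chain in their profile over the 3 lines were named by the root mean square difference of centred log2(TPM + 1), among 8428 genes. Among the nearest to Myl1 were Casq1, the calcium store protein of the sarcoplasmic reticulum (difference 0.03), Pcdh1, Actn2 of the Z-disc and Gsn. Nearest to Myl4 were Gas1, Myog (0.01), Itgb1bp2, Ephb2 and Zeb1. Nearest to Mylpf were Asph (0.01), Tgfbr1, Serinc5, Rbfox2 and Dll1. Among the 3 chains themselves, Myl4 was at rank 78 and Mylpf at rank 186 from Myl1, Mylpf at rank 69 and Myl1 at rank 121 from Myl4, and Myl4 at rank 471 and Myl1 at rank 2527 from Mylpf. With 3 points a profile, many genes come this close, and likeness here is a description.

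**Figure D4:**
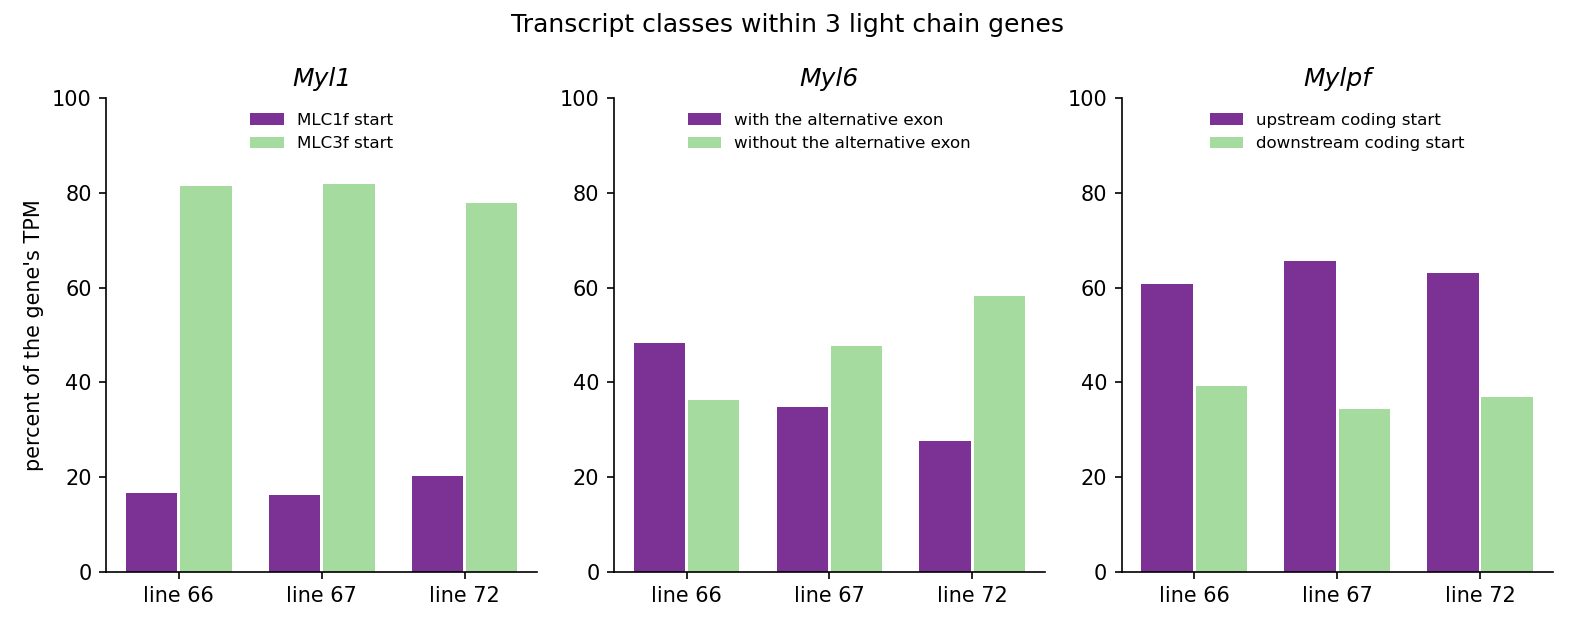
Bars give the percent of the TPM of Myl1, Myl6 and Mylpf in 2 classes of transcripts in each line, and transcripts in neither class are not drawn. MLC3f starts make up most of Myl1 in each line, the larger Myl6 class changes from the form with the alternative exon in line 66 to the form without it in lines 67 and 72, and the upstream start leads in Mylpf.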

How the data were processed

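Poly-A RNA libraries of 3 edited myoblast lines were used. The authors deposited, per transcript, an estimated count and a TPM value. Per the labels the submitters' processing notes name bcl2fastq 2.20, fastp 0.20, kallisto 0.46.1 and the build GRCm39, while the annotation release and strand setting are not given in the sources used here. Transcripts were matched by identifier to GENCODE M21 (GRCm38), whose coordinates are printed: 120686 of 121798 matched, and the rest (0.493% to 0.535% of counts) were left out. Values were summed per gene symbol, and levels were log2(TPM + 1). Gene comparisons between lines used genes averaging 10 TPM or more. The order of neighbours and the light chain sums were tested by exact sign flips of the differences between genes within each line. The step that calls genes past a fold was run on simulated counts with known changes, counting noise and no spread between lines. That run therefore does not bear on how many genes are reported. Total estimated counts were 73274315, 66972426 and 70272367, and a count of 0 allows 3 counts (0.041 to 0.045 CPM), which covers counting error only. edgeR 4.0.16 and DESeq2 1.42.0 gave alternative scalings of the counts, rounded to whole numbers. Named genes were the family, the fixed lists of related genes and markers, and the 5 nearest profiles, apart from a few genes that are not reported here. The members and lists were chosen with earlier results of these data known. RefSeq promoters of GRCm38.p6 matched all 10 genes. Python 3.11.15 and R 4.3.3 were used.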

Additional observations from a re-analysis of the deposited data

How the results depend on the processing

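Most Myl9 TPM came from noncoding transcripts, and its mean log2 level was 7.02 with them and 5.81 without. The number of light chain and kinase genes with a mean of at least 10 stayed at 7 under every alternative run, and the sarcomeric minus nonmuscle difference and the shares of Myl6, Mylpf and MLC3f starts kept their direction and shifted by under 1 SD over lines. The essential minus regulatory difference turned from -0.57 to 1.01 with only the regulatory chains among the 10 genes. The count of genes over 2-fold apart was 1 in the report (183 of all 8428 genes tested), 5 at 1.5-fold (761 of all), and between 0 and 1 without each line in turn (0 without line 66, 1 without line 67 and 0 without line 72, beside 73, 110 and 100 of all, since 1 pair of lines is then left). CPM, TMM-scaled CPM and DESeq2 size factors each gave 1 gene, Myl9 in place of Myl1 (189, 179 and 179 of all). Of 90 values of single genes or transcript classes under alternatives, 73 shifted by under 1 SD over lines and 17 by more. Of the 17, 10 were with CPM, which is not per length. The 73 include 16 values for each line left out. Those could not have shifted by 1 SD, because leaving out 1 of 3 lines moves a mean by less. Depth limits Myl2 and Myl3, and transcript shares rest on divided reads. No paired analysis was possible because there is no second group of samples to pair with the 3 lines, and the sign-flip tests set genes of the same line against each other.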
